A study of Mus musculus with 12 samples.

Results

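The genes described here encode the proteins of the cytosolic ribosome. They were chosen by name: every gene called Rpl or Rps with a number, with or without a closing a, l, x or y, together with Rplp0, Rplp1, Rplp2 and Rpsa. The rule reads names and no measured value, but it was set with earlier results of these data known. It took 81 of the 24138 genes in the deposited tables, 49 of the large subunit and 32 of the small subunit. The rule left out a few proteins of the same particle whose names differ, among them Rps3a1, Fau and Gnb2l1 (the scaffold protein RACK1), and their values are given beside the members.

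RNA was sequenced from 12 samples of mouse intra-aortic cluster cells, blood-forming cells that bud from the wall of the embryonic aorta, with 3 samples in each of 4 groups. All embryos were C57BL/6, the dissected tissue was the AGM (aorta-gonad-mesonephros), and all cells were sorted as SSEA-1-, CD31+ and CD117+. The groups were E10.5 G1, E10.5 S/G2/M, E11.5 G1 and E11.5 S/G2/M, where E10.5 and E11.5 are embryonic days. G1 cells carried mKO2 and came from Fucci Red embryos, and S/G2/M cells carried mAG and came from Fucci Green embryos, so cell cycle phase and reporter line cannot be told apart. The labels name no promoter for either reporter, and they do not say whether embryos were pooled or whether replicates were separate litters. The authors' tables hold 1 FPKM value for each gene and group, a level scaled to transcript length and to the fragments of the library. Comparing FPKM between genes rests on that length scaling. No spread between samples can be given, and sequencing depth is unknown. A gene was counted as changed at q under 0.05, where q is the adjusted p-value that the authors' deposited table lists. These q-values reflect at most the spread between samples, which may be technical.

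Each ribosome joins a small subunit, which reads the messenger RNA, to a large subunit, which forms the peptide bond. Its proteins are needed in nearly equal numbers, and most of their messenger RNAs begin with a run of pyrimidines (the 5′TOP motif) through which TOR signalling and LARP1 set how strongly they are translated. Rapidly dividing blood progenitors have a high demand for ribosomes, and loss of 1 copy of certain members causes Diamond-Blackfan anaemia, a failure of red cell production.

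Of the 81 members, 60 had an entry in RefSeq's table of promoters (GRCm38.p6), with 72 start sites in all and more than 1 start site for 10 genes. The following stretches run from 45 bases before an annotated start to 15 bases from it, and belong to the most abundant members, to those with large differences between groups and to genes that hold the shared letters. Capitals mark CTTTCC, a pyrimidine run near the start on the sense strand, and CCGGAAG, the core letters bound by ETS factors such as GABPA.
Rps27 (chr3:90213634-90213693, minus strand): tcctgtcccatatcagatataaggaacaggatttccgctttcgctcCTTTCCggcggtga
Rpl28 (chr7:4792920-4792979, plus strand): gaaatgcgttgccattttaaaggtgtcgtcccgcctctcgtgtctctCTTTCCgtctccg
Rpl35a (chr16:33056437-33056496, plus strand, 1 of 3 annotated starts): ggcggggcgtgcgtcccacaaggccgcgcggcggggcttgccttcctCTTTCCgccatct
Rps10 (chr17:27635230-27635289, minus strand): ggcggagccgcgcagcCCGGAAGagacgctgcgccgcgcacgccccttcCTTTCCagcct
Rpl38 (chr11:114668535-114668594, plus strand): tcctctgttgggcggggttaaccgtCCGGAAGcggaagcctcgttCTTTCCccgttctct
Rpl37 (chr15:5116568-5116627, plus strand): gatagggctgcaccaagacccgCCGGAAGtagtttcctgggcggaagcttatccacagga
Rpl41 (chr10:128549154-128549213, minus strand): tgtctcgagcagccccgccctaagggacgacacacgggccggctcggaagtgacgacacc
Rplp2 (chr7:141447606-141447665, plus strand): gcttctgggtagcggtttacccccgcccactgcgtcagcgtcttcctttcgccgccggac
Rpl27 (chr11:101442200-101442259, plus strand): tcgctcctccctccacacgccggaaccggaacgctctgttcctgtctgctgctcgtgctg
Rps28 (chr17:33824548-33824607, minus strand): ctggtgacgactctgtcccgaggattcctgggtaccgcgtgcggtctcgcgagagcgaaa
Rpsa (chr9:120127721-120127780, plus strand): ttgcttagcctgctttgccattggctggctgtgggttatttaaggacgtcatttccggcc

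CTTTCC, searched on the sense strand within 15 bases of the start, was present for 10 of the 60 member genes (16.7%) and for 1.67% of all 27025 genes of the table. Searched in the whole window of 300 bases, on both strands (CCGGAAG or CTTCCGG), the ETS letters were present for 25 of 60 member genes (41.7%) and for 9.93% of all genes. The GC box GGGCGG, also on both strands, was present for 36 of 60 member genes, and for 38.2% of all genes. AAGATGG, letters bound by YY1, was present for 9 of 60 member genes and 7.28% of all genes. The E-box CACGTG was present for 6 of 60 and 8.09%, and the TATA letters TATAAA for 6 of 60 and 15.7%. A match of letters is not a bound site. The 4 comparisons of expression gave nearly the same median for members with and without CCGGAAG, with log2 ratios of 0.12 and 0.10 between phases at E10.5, 0.31 and 0.32 between phases at E11.5, -0.21 and -0.16 between ages in G1, and 0.01 and 0.04 between ages in S/G2/M. The start regions of Rps10, a small-subunit protein, and Rpl38, known for a part in translating Hox messages, hold both sets of letters. Rps10 had 2344 FPKM in E10.5 G1, 2639 FPKM in E10.5 S/G2/M, 1757 FPKM in E11.5 G1 and 2468 FPKM in E11.5 S/G2/M. Rpl38 had 3411, 3592, 2680 and 3799 FPKM in the same order, over a deposited locus (114344526 to 114757886 on chromosome 11, mm10) far longer than a ribosomal protein gene. Whether reads of other genes in that locus entered its value was not tested.

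Ribosomal protein genes stood among the most abundant transcripts of the clusters in every group. Of the 100 tested genes with the highest FPKM, 62 were members in E10.5 G1, 63 in E10.5 S/G2/M, 59 in E11.5 G1 and 62 in E11.5 S/G2/M. The 7 genes marked as having too many reads were listed at 0 and were not ranked. The median level of the tested members was 1692 FPKM in E10.5 G1 and 1905 FPKM in E10.5 S/G2/M. At E11.5, in a table the authors scaled separately, it was 1426 FPKM for G1 and 1842 FPKM for S/G2/M. The same group had slightly different values in different tables, by a median factor of 0.954 to 1.04, so the FPKM of the 2 ages are compared below only within the tables that hold both.

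Rpl41, a very short peptide that bridges the 2 subunits, had the highest level, with 10782 FPKM in E10.5 G1, 11725 FPKM in E10.5 S/G2/M, 8770 FPKM in E11.5 G1 and 10836 FPKM in E11.5 S/G2/M. Rps27, a zinc-finger protein of the small subunit, followed with 6319, 6046, 4651 and 5791 FPKM in the same order of groups. Rps29, another small zinc-binding protein, had 4633, 4825, 4541 and 5241 FPKM. In this length-scaled measure, these short genes stood far above the median in all 4 groups. The 4 highest members together made up 15.9% to 16.7% of the summed member FPKM. At the other end, 5 of the 78 members tested between the E10.5 phases were under 500 FPKM in G1: Rpl21, the paralogue Rps27l, Rpl22 (a large-subunit protein needed for lymphocyte development), Rps15a and the paralogue Rps4l. The 3 members not tested there, Rpl39l, Rpl10l and Rpl3l, were at or near 0. Rps15a had 190 FPKM in E10.5 G1 and 194 FPKM in E10.5 S/G2/M, beside 93.1 and 104 FPKM for the processed copy Rps15a-ps4 and 53.5 and 58.3 FPKM for Rps15a-ps6. Reads of these near-identical copies may have been split between them, and the level of Rps15a is uncertain for that reason.

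**Figure D1:**
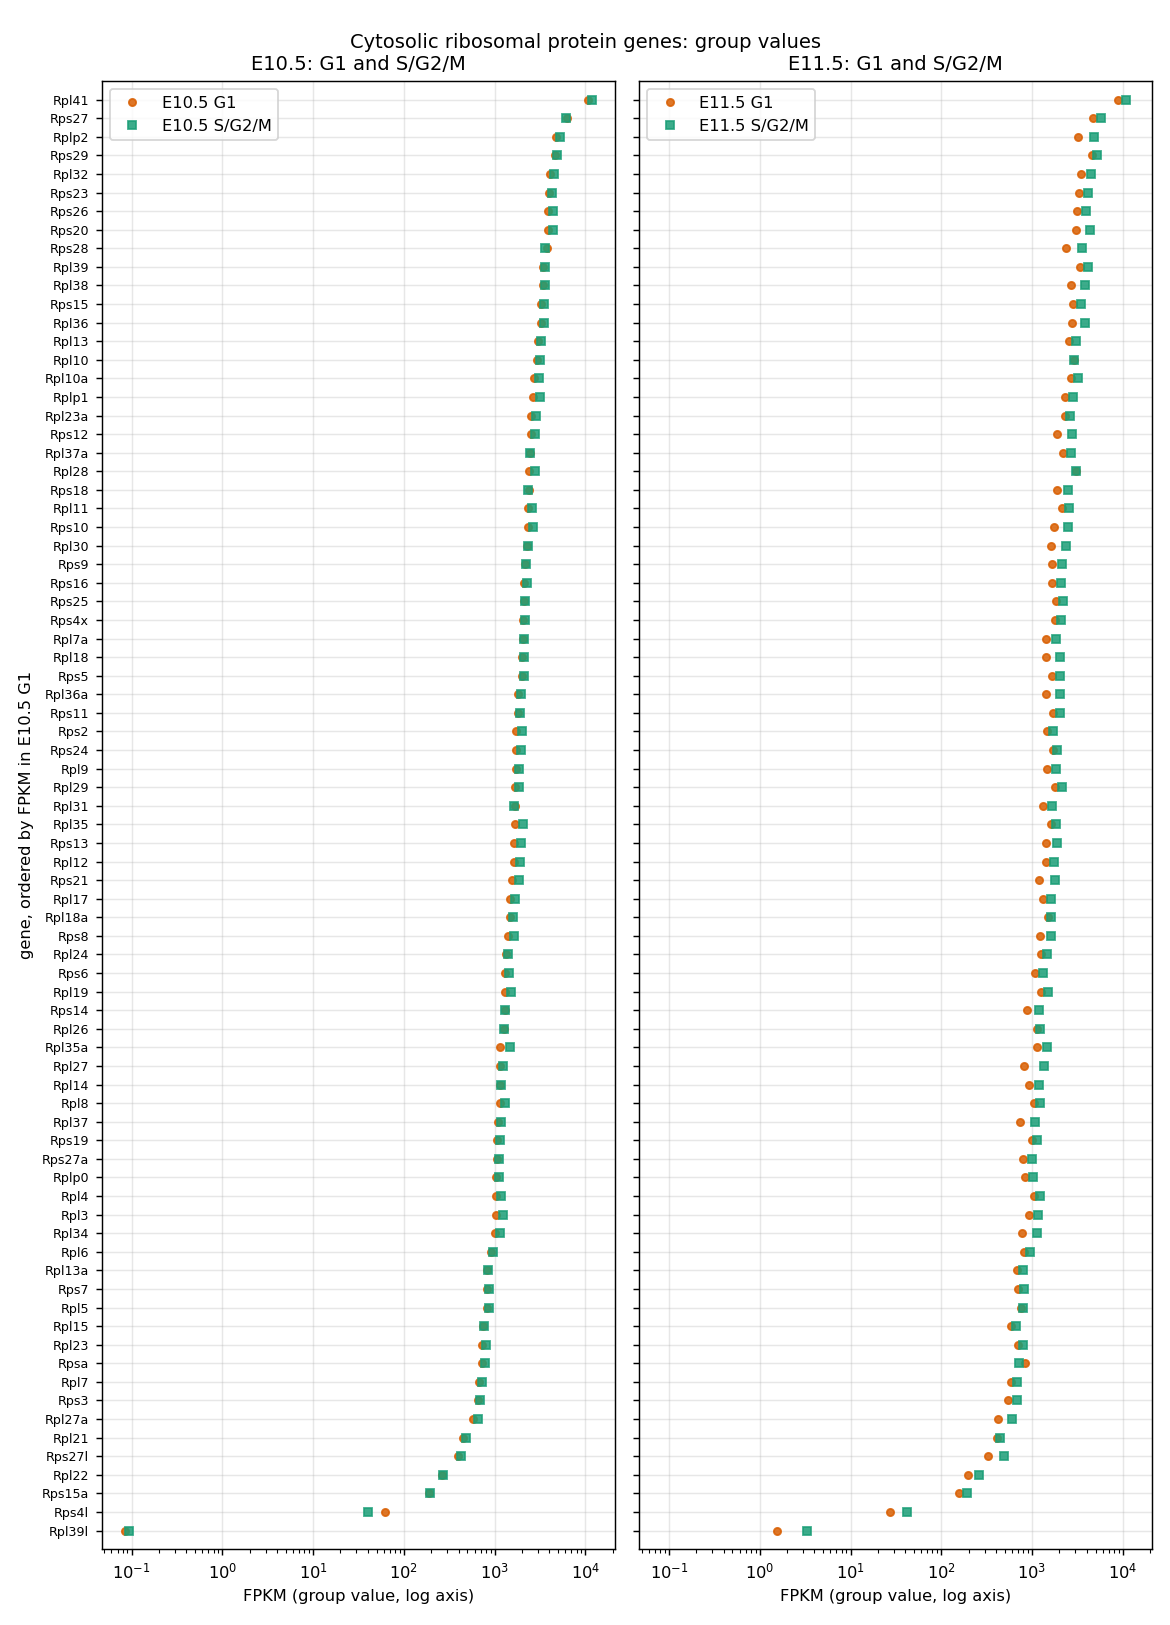
Group values of ribosomal protein genes tested by the authors, in FPKM on a log axis, with E10.5 on the left and E11.5 on the right. Circles are G1 and squares are S/G2/M, genes are ordered by their E10.5 G1 value, and the order of levels is nearly the same in all 4 groups, from Rpl41 at 10782 FPKM in E10.5 G1 to Rps4l at 62.4 FPKM and, at the bottom, Rpl39l near 0.

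The rank order of the members was almost the same in both groups of each table. Across the 78 members tested in all 4 tables, Spearman's rho between groups was 0.996 for the phases at E10.5, 0.986 for the phases at E11.5, 0.979 for the ages in G1 and 0.993 for the ages in S/G2/M. These are descriptions across genes of the same libraries. Members with shorter annotated transcripts had higher levels, with rho between -0.46 and -0.41 over 77 members. Annotated lengths (the median per gene in GENCODE M21) ran from 367 to 3706 bases. The longest, that of Rps20, exceeds its deposited locus (3834473 to 3835600 on chromosome 4, mm10). Annotated lengths thus need not be those of the measured transcripts. FPKM is itself divided by a transcript length, and the part of that scaling in the relation was not tested.

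Between the phases at E10.5, no ribosomal protein gene passed the threshold, and most members were slightly higher in S/G2/M. Of 78 tested members, 73 were higher in S/G2/M and 5 were lower, with a median log2 ratio of 0.11 and quartiles of 0.07 and 0.17. The 49 large-subunit and 32 small-subunit members had nearly equal medians, 0.12 and 0.10 over those tested. The summed FPKM was 158371 in G1 and 170986 in S/G2/M, which is 28.4% and 28.9% of the FPKM of all tested genes. In bulk samples such as these, fewer cells of a type and less RNA per cell cannot be told apart. Rplp1, a protein of the stalk that recruits elongation factors, had 2633 FPKM in G1 and 3135 in S/G2/M, and its partners Rplp0 and Rplp2 had 1038 and 1113 FPKM, and 4754 and 5194 FPKM.

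By the authors' deposited table, 0 of these 78 members had q under 0.05, against 0.655% of all 12984 tested genes, and 0 had an unadjusted p under 0.05, against 6.69% of all tested genes. Among all tested genes 47.3% were higher in S/G2/M with a median of -0.04, and among 542 other genes of at least 100 FPKM in both groups 61.4% were higher with a median of 0.08. After centring on these abundant genes, a setting added after the data were seen, 52 of 78 members were higher, with a median of 0.03. The median of the other abundant genes was thus close to that of the members.

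The largest E10.5 differences were small. Rpl35a, a Diamond-Blackfan gene of the large subunit whose start region is printed above, had 1149 FPKM in G1 and 1490 in S/G2/M (log2 ratio 0.37), with p = 0.1473 and q = 0.907 in the authors' deposited table. Rpl35, at the mouth of the exit tunnel, had 1690 and 2056 FPKM (0.28), and Rpl3, which lies near the peptidyl transferase centre, had 1024 and 1229 FPKM (0.26). On the lower side stood Rps4l with 62.4 and 40.7 FPKM (-0.62), Rps28 with 3792 and 3609 FPKM (-0.07) and Rps27 with 6319 and 6046 FPKM (-0.06). Apart from the low-level Rps4l, no member differed by more than 0.5 on the log2 scale, and 72 of 78 differed by less than 0.25.

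Between the phases at E11.5, the members were again higher in S/G2/M without any passing the threshold, by a larger median than at E10.5. Of 79 tested members, 78 were higher in S/G2/M and 1 was lower, with a median log2 ratio of 0.31 and quartiles of 0.22 and 0.44. The medians were 0.31 for the large subunit and 0.32 for the small subunit. The summed FPKM was 133435 in G1 and 168243 in S/G2/M, or 25.7% and 29.8% of the FPKM of all tested genes, a 1.26-fold ratio. The gap between the 2 medians was not tested, since only group values were at hand.

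By the authors' deposited table, 0 of 79 members had q under 0.05, against 0.701% of 12414 tested genes, and 1 had an unadjusted p under 0.05, against 8.27% of all tested genes. That member was Rpl27, a large-subunit protein mutated in Diamond-Blackfan anaemia. It had 807 FPKM in G1 and 1347 in S/G2/M (log2 ratio 0.74, 1.67-fold), with p = 0.03515 and q = 0.538 in the authors' deposited table. At E10.5 the same gene had 1145 and 1240 FPKM, so its G1 and S/G2/M values lay close together at that age.

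The paralogue Rps27l was also among the members with the highest ratios at E11.5, with 325 and 492 FPKM (log2 ratio 0.60). In all, 16 members of at least 5 FPKM differed by more than 0.5 on the log2 scale, all with the higher value in S/G2/M. Rps28 was among them with 2373 and 3550 FPKM (0.58), and so was the stalk gene Rplp2 with 3241 and 4863 FPKM (0.59). The other stalk genes had smaller ratios, with 829 and 1035 FPKM for Rplp0 (0.32) and 2285 and 2828 FPKM for Rplp1 (0.31).

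Rpsa was the single member with a lower value in S/G2/M at E11.5. Its product is a protein of the small subunit that is also known as a laminin receptor precursor at the cell surface. It had 836 FPKM in G1 and 713 in S/G2/M (log2 ratio -0.23), with q = 0.898 in the authors' deposited table. At E10.5 it had 715 and 778 FPKM (0.12). Rpl28 and Rpl10, a protein added late in large-subunit assembly, had almost equal values in the E11.5 phases, with 3034 and 3086 FPKM (0.02) and 2886 and 2915 FPKM (0.01).

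The direction at E11.5 was shared in part by other abundant genes. Of all tested genes 46.1% were higher in S/G2/M with a median of -0.06, and of 484 other genes of at least 100 FPKM in both groups 62.4% were higher with a median of 0.14. Centred on those abundant genes, 72 of 79 members were higher and the median was 0.17. Markers of other cell types also differed between these groups, where 0.701% of all tested genes were called in either direction. All 16 macrophage markers were lower in S/G2/M, with summed values of 4055 FPKM in G1 and 1531 in S/G2/M, and 7 of them fell. The 9 measured erythroid markers summed to 12206 and 3106 FPKM, 8 of them were lower and 3 fell. All 11 neural markers were lower in S/G2/M without a call (166 and 94.1 FPKM in sum). Of 13 endothelial markers 11 were lower, also without a call (1027 and 801 FPKM), and of 14 blood progenitor markers 11 were higher and 1 rose (520 and 662 FPKM). None of the markers was listed at 0 in either group, and their part in the ribosomal protein result was not tested. The macrophage list held 0.78% of the tested FPKM in G1 and 0.27% in S/G2/M, and the erythroid list 2.35% and 0.55%. With both lists left out of the total, the members made up 26.5% of the tested FPKM for G1 and 30.03% for S/G2/M. All other transcripts of such cells stayed in that total, so these shares cannot show their part.

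**Figure D2:**
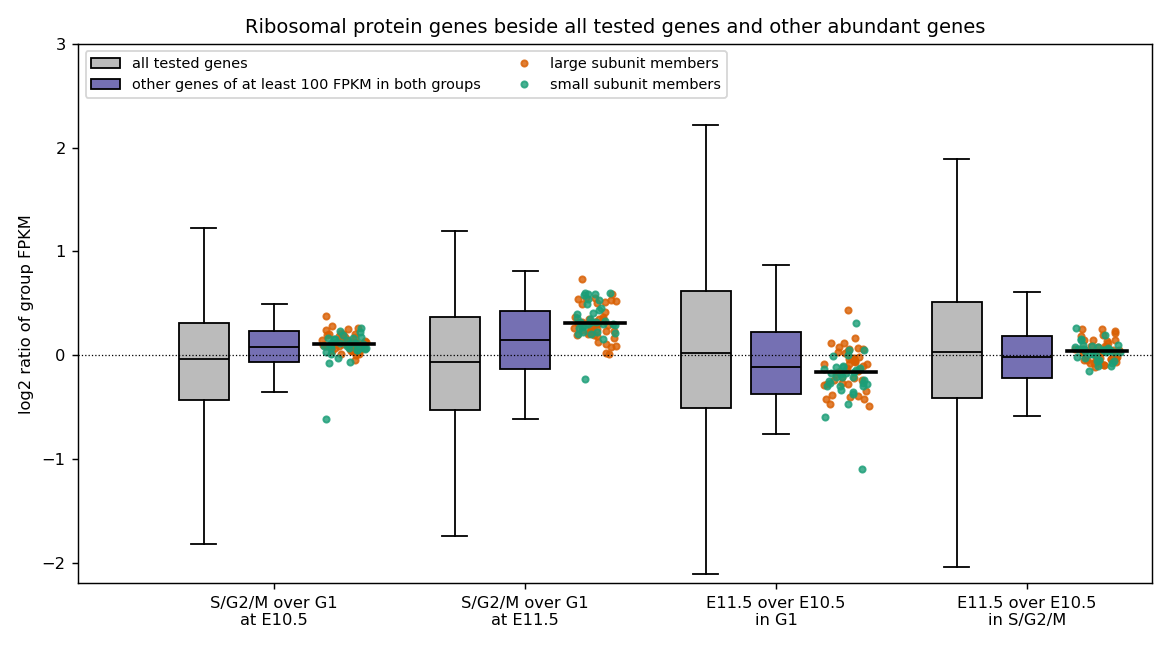
The log2 ratio of group FPKM in the 4 comparisons, for all tested genes (grey boxes), other genes of at least 100 FPKM in both groups (purple boxes) and single ribosomal protein genes of at least 5 FPKM (points, black line at their median); boxes span the quartiles and whiskers run from percentile 5 to percentile 95. The members are packed more tightly than either set of other genes, with medians of 0.11, 0.31, -0.16 and 0.04 from left to right.

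The size of a member's phase ratio at one age said little about its size at the other. The 2 comparisons share no group, and Spearman's rho between their log2 ratios was -0.06 across 78 members, given as a description. Rpl35a had the highest ratio at E10.5 (0.37) and a ratio of 0.35 at E11.5, near the middle of the members there. Rps28 had -0.07 at E10.5 and 0.58 at E11.5, and Rps4l had -0.62 and 0.59. At E11.5 longer transcripts had smaller ratios (rho -0.30 with transcript length, 77 members), while at E10.5 the sign was opposite (0.18).

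**Figure D3:**
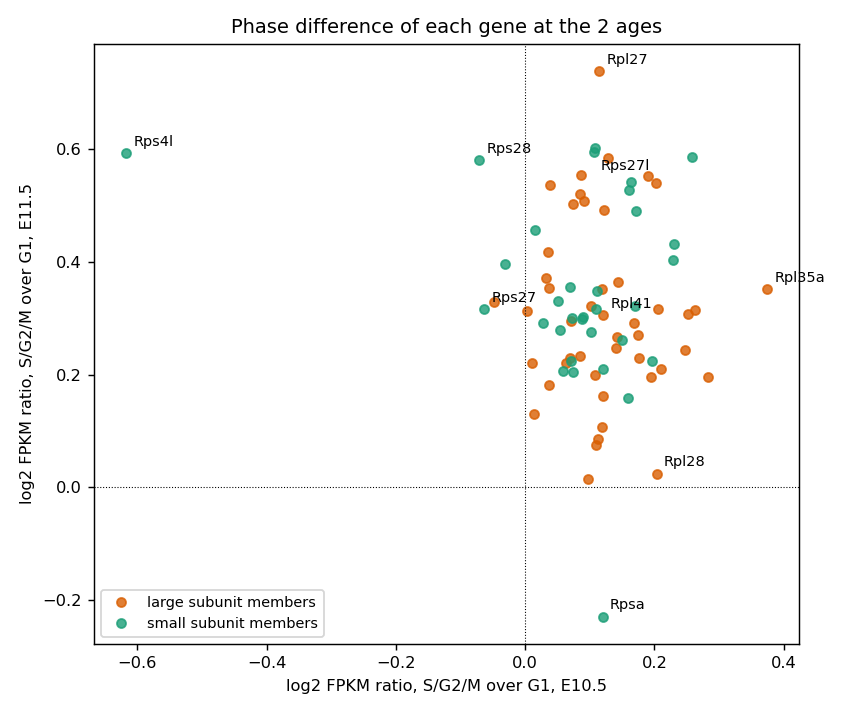
Each ribosomal protein gene by its log2 FPKM ratio of S/G2/M over G1 at E10.5 (horizontal) and at E11.5 (vertical), with large-subunit members in orange, small-subunit members in green and dotted lines at equal values. Nearly all points lie right of and above the lines without forming a trend (rho -0.06), Rpl27 is highest at E11.5 (0.74), and Rpsa is the point below the horizontal line (-0.23).

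Between the ages in G1, most members were lower at E11.5, and none passed the threshold. Of 79 tested members, 63 were lower and 16 were higher at E11.5, with a median log2 ratio of -0.16 and quartiles of -0.28 and -0.03. The median was -0.10 for the large subunit and -0.21 for the small subunit. The summed FPKM was 151118 at E10.5 and 134993 at E11.5, or 28.4% and 25.6% of the tested FPKM. The ratio of summed large-subunit to summed small-subunit FPKM was 1.31 at E10.5 and 1.39 at E11.5.

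By the authors' deposited table, 0 of 79 members had q under 0.05 in G1, against 4.45% of 12953 tested genes, and 0 had an unadjusted p under 0.05, against 15.4%. All tested genes had a median of 0.02, with 50.9% higher at E11.5, while 457 other genes of at least 100 FPKM in both groups had a median of -0.11, with 37.9% higher. Centred on these, the members' median was -0.05, with 30 higher and 49 lower, and most of the members' shift was thus also present in the other abundant genes.

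Rps28 had 3614 FPKM at E10.5 and 2399 at E11.5 in G1 (log2 ratio -0.59), with p = 0.0787 and q = 0.406 in the authors' deposited table, the lowest p of any member in this comparison. Rpl37, a zinc-binding protein of the large subunit with the ETS letters at its start, had 1044 and 745 FPKM (-0.49). Rplp2 had 4533 and 3274 FPKM (-0.47), beside 2514 and 2310 FPKM for Rplp1 (-0.12) and 990 and 839 FPKM for Rplp0 (-0.24). Rps4l had the lowest ratio, with 59.5 and 27.8 FPKM (-1.10). Apart from Rps28 and Rps4l, no member of at least 5 FPKM differed by more than 0.5 on the log2 scale.

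On the higher side at E11.5 in G1 were Rpl28 with 2281 and 3075 FPKM (log2 ratio 0.43), Rpsa with 683 and 847 FPKM (0.31) and Rpl29, also known as a heparin-binding protein, with 1613 and 1803 FPKM (0.16). No change was called for Fau and Gnb2l1, genes of the same particle that the naming rule leaves out. Fau, which encodes a small-subunit protein fused to a ubiquitin-like one, had 1057 and 1307 FPKM. Gnb2l1 had 725 and 714 FPKM.

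Macrophage markers moved strongly between the ages in G1, where 4.45% of all tested genes were called in either direction. All 16 were higher at E11.5, with sums of 638 FPKM at E10.5 and 4102 at E11.5, and 15 of them rose. All 11 neural markers were lower at E11.5 (508 and 168 FPKM in sum, 4 fell), as were all 12 mesenchymal markers (245 and 72.2 FPKM, 5 fell). The erythroid sum was 14567 and 12335 FPKM, although 5 of 9 erythroid markers were higher and 4 were lower at E11.5, without a call. Of 13 endothelial markers 12 were higher at E11.5 and 2 rose (570 and 1041 FPKM), and of 14 blood progenitor markers 10 were higher and 4 rose (229.6 and 526 FPKM). No marker was at 0 in either group, and with macrophage and erythroid markers left out of the total the members' share was 29.2% at E10.5 and 26.5% at E11.5. The part of these markers in the members' values was not tested.

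Between the ages in S/G2/M, the members were nearly level. Of 79 tested members, 52 were higher and 27 were lower at E11.5, with a median log2 ratio of 0.04 and quartiles of -0.03 and 0.09. Both subunits had a median of 0.04. Among all tested genes 52.2% were higher at E11.5 with a median of 0.03. Among 543 other genes of at least 100 FPKM in both groups 47.1% were higher with a median of -0.02. Centred on all tested genes, 44 members were higher and 35 were lower. Centred on the abundant genes, the counts were 53 and 26. The summed FPKM was 169401 at E10.5 and 174835 at E11.5, or 28.9% and 29.7% of the tested FPKM, and 75 of 79 members differed by less than 0.25 on the log2 scale.

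By the authors' deposited table, 0 of 79 members had q under 0.05 in S/G2/M, against 4.07% of 12768 tested genes, and 0 had an unadjusted p under 0.05, against 13.9%. Rps27l had 425 and 510 FPKM (log2 ratio 0.26), Rpl39, a small protein that lines the exit tunnel, had 3577 and 4265 FPKM (0.25), and Rpl29 had 1849 and 2201 FPKM (0.25). The lowest ratios were those of Rps2 with 1972 and 1769 FPKM (-0.16), Rpl15 with 752 and 696 FPKM (-0.11) and Rps26 with 4332 and 4036 FPKM (-0.10). Marker lists moved in the same comparison. All 9 erythroid markers were lower at E11.5 and 3 fell, with sums of 19757 FPKM at E10.5 and 3267 at E11.5, and all 12 mesenchymal markers were lower and 5 fell (269 and 65.2 FPKM). All 16 macrophage markers were higher and 8 rose (436 and 1594 FPKM). Of 14 blood progenitor markers 13 were higher and 8 rose (264.7 and 687 FPKM), and of 13 endothelial markers 12 were higher and 3 rose (433 and 840.1 FPKM). The members' share without macrophage and erythroid markers was 29.9% and 29.97%, and the part of the markers was not tested.

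**Figure D4:**
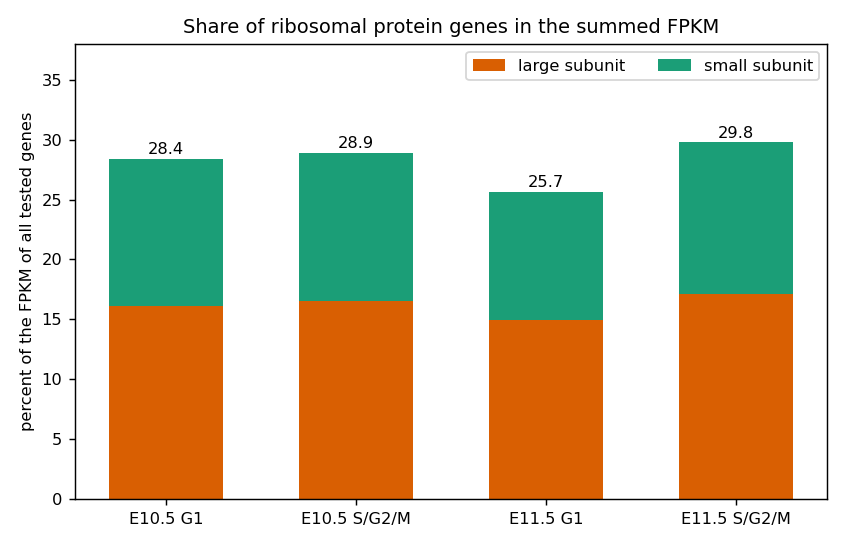
Share of the ribosomal protein genes in the summed FPKM of all genes tested by the authors, in percent, for the 4 groups, with the large subunit in orange below the small subunit in green. The 2 groups of each age come from 1 table; the E10.5 bars stand at 28.4% and 28.9%, and the E11.5 bars at 25.7% for G1 and 29.8% for S/G2/M.

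Summed large-subunit FPKM over summed small-subunit FPKM was 1.31 in G1 and 1.34 in S/G2/M in the E10.5 table, and 1.39 and 1.35 in the E11.5 table. In the table of S/G2/M by age it was 1.34 at E10.5 and 1.35 at E11.5. These sums weight a gene by its level, and the number of members differs between the subunits.

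The sizes of difference that the authors' test did call at these levels can be read from other genes. They are not a limit of detection, since few such genes were called and the spread of each gene is unknown. Among tested genes of at least 100 FPKM in both groups, members included, the smallest called difference on the log2 scale was 1.08 (Hist1h1e, a linker histone) between phases at E10.5, 1.28 (Ube2c, a ubiquitin-conjugating enzyme of mitosis) between phases at E11.5, 1.06 (Gnai2, a G protein subunit) between ages in G1 and 0.96 (Tmsb4x, an actin-binding thymosin) between ages in S/G2/M. No member of at least 100 FPKM differed by that much in any comparison. Differences of the size seen among the members were therefore smaller than any the test called at that level, and their absence from the calls does not show that the levels were equal.

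Members mutated in Diamond-Blackfan anaemia had medians close to those of all members. Of these 18 genes, 15 were higher in S/G2/M at E10.5, 18 at E11.5, 4 were higher at E11.5 in G1 and 12 in S/G2/M, with medians of 0.11, 0.29, -0.18 and 0.03. None passed the threshold in the authors' deposited tables. Rps19, the member most often mutated in the disease, had 1053 and 1144 FPKM in G1 and S/G2/M at E10.5 and 988 and 1143 FPKM at E11.5 (log2 ratios 0.12 and 0.21). Rpl5 had 812 and 876 FPKM at E10.5 and 746 and 786 FPKM at E11.5. Its deposited locus (107900528 to 107987077 on chromosome 5, mm10) is far longer than a ribosomal protein gene, as are those of some members not named here. Whether reads of other genes in these loci entered the values was not tested. Rpl11, which joins Rpl5 and the 5S RNA in a particle that restrains Mdm2 and so stabilises p53, had 2348 and 2591 FPKM and 2135 and 2568 FPKM.

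Several members have a paralogue with a tissue-restricted pattern elsewhere. Rpl10l, which replaces Rpl10 in male germ cells, was listed at 0 in all 4 groups, and Rpl3l, a form of striated muscle, was at 0 in all groups except 0.0595 FPKM in E11.5 S/G2/M. Neither was tested by the authors in any of the 4 tables. Rpl39l, a germ cell form of Rpl39, had 0.0844 FPKM in E10.5 G1 and 0.0943 FPKM in E10.5 S/G2/M, where it was not tested, and 1.56 and 3.27 FPKM at E11.5. In the tables by age it was tested, without a call, at 0.0808 and 1.56 FPKM in G1 and 0.0928 and 3.41 FPKM in S/G2/M. These values are too low for a ratio to be read, and Rpl39 itself had 3344 FPKM in E11.5 G1. Rps27l, a paralogue induced by p53, had 398, 428, 325 and 492 FPKM across the 4 groups, against 6319, 6046, 4651 and 5791 FPKM for Rps27. Rps4l had 62.4, 40.7, 27.5 and 41.5 FPKM, against 2039, 2141, 1784 and 2084 FPKM for the X-linked Rps4x. The deposited locus of Rps4l runs from 148047416 to 148444352 on chromosome 6 (mm10), far longer than a ribosomal protein gene, and whether reads of other genes in it entered the value was not tested. Rps3a1, outside the rule by its name, had 1777, 2104, 1352 and 1882 FPKM.

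Other lists of the translation machinery are given by their medians, and their differences from the members were not tested. Of 76 mitochondrial ribosomal protein genes, none passed in any comparison, and the medians were 0.12 and 0.40 between phases at E10.5 and E11.5, and -0.07 and 0.09 between ages in G1 and S/G2/M. The 17 further genes known for a 5′TOP start, such as elongation factors, had medians of 0.08, 0.28, -0.34 and -0.13, and 29 initiation factors had 0.14, 0.30, -0.10 and -0.02, with none called. Of the 5′TOP genes 4 were higher and 13 were lower at E11.5 in S/G2/M, where 52 members were higher and 27 were lower. In that comparison 52.2% of all tested genes were higher, and 47.1% of other genes of at least 100 FPKM in both groups. Eef1a1, the main elongation factor, had 3338 and 3432 FPKM between the E10.5 phases and 3452 and 2982 FPKM at E11.5. Eif5a, which helps ribosomes over stalled peptide bonds, had 581 and 775 FPKM, and 475 and 737 FPKM.

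Among the lists of the translation machinery and its regulators, ribosome assembly factors had the highest medians between the phases. Of 51 such genes, 44 at E10.5 and 49 at E11.5 were higher in S/G2/M, with medians of 0.28 and 0.59, and none passed the threshold. Unadjusted p under 0.05 was listed by the authors for 11 of them at E11.5, against 8.27% of all tested genes, and for 2 at E10.5, against 6.69%. Their medians between ages were -0.15 in G1 and 0.14 in S/G2/M. Fbl, the methyltransferase of ribosomal RNA, had 273 and 305 FPKM at E10.5, and 149 and 262 FPKM at E11.5 (log2 ratio 0.82). Ncl, also of this list, had 144 and 200 FPKM at E10.5, and 129 and 196 FPKM at E11.5 (0.60). Npm1, a nucleolar chaperone of assembly, was counted among the 5′TOP genes above and not in this list. It had 2517 and 3065 FPKM at E10.5, and 1457 and 2534 FPKM at E11.5 (0.80). The 14 genes of RNA polymerase I and its factors, which copies ribosomal DNA, had medians of 0.06, 0.18, -0.11 and -0.11, with none called.

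Among 19 genes of the TOR and Myc pathways, which set ribosome production, 1 gene passed between the ages in each phase, named here because it passed. All tested genes passed at 4.45% in G1 and 4.07% in S/G2/M, so 1 of 19 is near the background. Myc rose in S/G2/M from 73.5 FPKM at E10.5 to 157 FPKM at E11.5 (q = 0.00971 in the authors' deposited table). In G1 it had 60.3 and 99.1 FPKM without a call. Mycl fell in G1 from 9.80 to 1.90 FPKM (q = 0.0424 in the authors' deposited table). The list medians were -0.06, 0.08, 0.13 and 0.07, and no gene of it passed between phases. Larp1, which binds 5′TOP messages, had 31.7 and 39.3 FPKM between the E10.5 phases and 44.2 and 48.0 FPKM at E11.5.

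**Figure D5:**
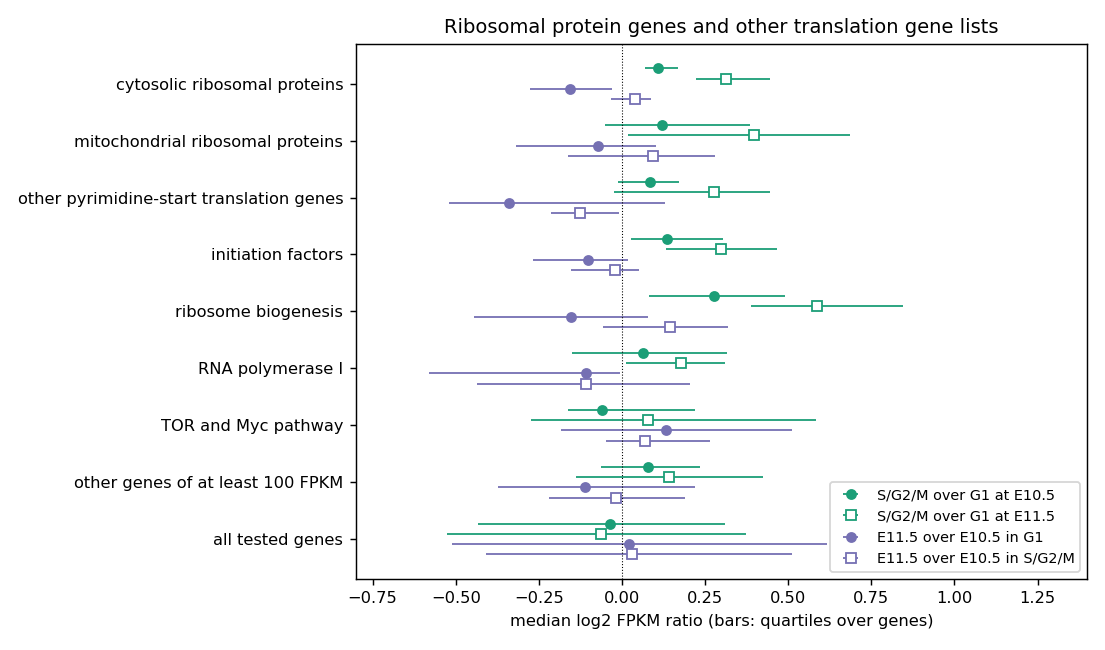
Median log2 FPKM ratio of the ribosomal protein genes and of other lists of genes in the 4 comparisons, with bars over the quartiles of the genes in a list, phases in green and ages in purple. The ribosomal protein genes have the shortest bars; of the lists plotted, ribosome biogenesis genes have the highest medians between phases (0.28 and 0.59).

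Marker lists were read beside the label of the sorted cells, but they could not test it. No measured marker of any list was at 0 in any group, those of other cell types included. The 13 endothelial and 14 blood progenitor markers had sums of 433 to 1041 FPKM and 229.6 to 687 FPKM across the tables. At E10.5 the blood progenitor sum was 240 FPKM for G1 and 269 FPKM for S/G2/M. The 12 mesenchymal markers summed to 257 and 271 FPKM at that age, with 5 higher and 7 lower in S/G2/M. Between the phases at E10.5 all 13 endothelial markers were lower in S/G2/M and 1 fell (595 and 439 FPKM, median log2 ratio -0.40), and 8 of 14 blood progenitor markers were higher without a call. At E10.5 the macrophage sum was 665 FPKM in G1 and 444 in S/G2/M, and 14 of 16 macrophage markers were lower in S/G2/M. The 9 erythroid markers were all higher there (15397 and 19585 FPKM), and of 11 neural markers 10 were lower and 7 fell (531 and 116 FPKM). Between these phases 0.655% of all tested genes were called in either direction. Members' shares at E10.5 without macrophage and erythroid markers were 29.2% and 29.9%, and the part of the marker lists was not tested.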

How the data were processed

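RNA was measured by sequencing in 12 samples, 3 in each of 4 groups. The authors deposited 6 gene tables, each with 1 FPKM value for each of 2 groups and, per the file headers, the p-value and q-value of the authors' test. The submitters' processing notes list the tools Cuffdiff, TopHat and CASAVA 1.4 and the build mm10, without a role or order. The labels' protocols instead name bowtie and mm8. All 81 deposited loci overlapped the gene of the same symbol in RefSeq's GRCm38 annotation (mm10), so coordinates are printed as mm10. Deposited starts count from 0 and are printed counting from 1. Column labels of the tables say G2 where the sorted population was S/G2/M, and the 2 were taken as the same since there is no further sorted population. The strandedness of the reads and the way in which samples of 1 group were combined are not stated in the sources. The smallest p-value in the tables is 5e-05. No column of a single sample was present, no read totals are given, and the depth and the precision it gives are unknown.

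The members and the gene lists were chosen with earlier results of these data known. Log2 ratios were computed here from the 2 FPKM values without a pseudocount, for genes the authors tested and listed above 0 in both groups. Genes marked as having too many reads (7 per table, listed at 0) held no member. Calls are the authors' q-values under 0.05, since group values allow no test here. 1 member, Rpl13a, shares its name field with other genes. Named genes were the 4 most abundant members, the 3 highest and 3 lowest ratios among members of at least 5 FPKM in a group, paralogues with their partners, stalk genes, Rpsa and Diamond-Blackfan genes. Others, such as Rpl10, Rpl22, Rpl37 and Rps15a in some comparisons, and Myc and Mycl, were named after their values were seen. Some genes that the rule selects are not reported here by name. Alternatives were filters at 1 and 5 FPKM, single gene names, a threshold of 0.085, unadjusted p, a pseudocount of 1 FPKM, centring and the authors' tables in the other order. The calculation was tested on simulated data. Python 3.11.15, numpy 2.4.6, pandas 2.3.3, scipy 1.17.1 and matplotlib 3.10.9 were used.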

Additional observations from a re-analysis of the deposited data

How the results depend on the processing

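When the authors' deposited p-values were taken unadjusted at 0.05 in place of q, 1 member (Rpl27, log2 ratio 0.74) passed between the phases at E11.5 instead of 0. Centring on other genes of at least 100 FPKM, chosen after seeing the data, moved the E11.5 phase median to 0.17 and its summed ratio to 0.19, and the G1 age median to -0.048 and its summed ratio to -0.053. The shift removed was 0.14 and -0.11. Centring on all tested genes turned the sign of Rpl35 between ages in G1 (-2.85e-05), and of Rpl18 (-0.028), Rps27 (-0.021) and Rps4x (-0.00128) between ages in S/G2/M. The other 65 planned values of counts, medians and sums, and 917 planned values of single genes, counted as unchanged. They kept their direction and side of the threshold or moved by less than 0.1 on the log2 scale. That tolerance was set in place of a spread between replicates. Several settings could change little, since most members lay far above the filters and the pseudocount, and the lowest member q was 0.406. The tolerance is close to the E10.5 phase median (0.11) and above the S/G2/M age median (0.04). Centring on the abundant genes moved the E10.5 phase median to 0.03, which counted as unchanged. These counts therefore do not show that such small medians are stable. No paired analysis was possible because the deposited columns hold groups and carry no replicate numbers, and for the same reason no sample could be left out. The unknown depth limits what low genes such as Rpl39l can show.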
